A study of Mus musculus with 10 samples.

Results

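Livers after 21 weeks on a high-fat/high-cholesterol diet were set against livers of the same strains at week 0 of the diet. The 4 arrays are the week 21 array of C57BL/6J, the week 21 array of DBA/2J, and the week 0 array of each strain, out of 10 arrays over 5 weeks (0, 1, 4, 12 and 21). All mice were female, the 2 strains are inbred, and each array held equal amounts of liver RNA pooled from 5 mice, so a pool is 1 sample and the spread between single mice was not measured. Levels are log2(signal + 1.05) after quantile normalisation, and a change is the level at week 21 minus that at week 0, so 1 is a 2-fold difference. The labels give no age, fasting state or hour of collection. Age and time on the diet therefore cannot be told apart, and a difference in feeding state or hour between the collections cannot be told apart from either. The tissue label held at the transcript level: Alb, the serum albumin gene, was at 12.60 in C57BL/6J and 12.55 in DBA/2J at week 21 and at 12.64 and 12.60 in these strains at week 0, and 15 hepatocyte markers had a median change of −0.02.

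The liver makes cholesterol from acetyl-CoA and takes it up from lipoproteins. The transcription factor SREBP-2 drives the genes of both routes when sterols in the membranes are scarce. When sterols are plentiful SREBP-2 is held back, and oxysterols activate the receptor LXR, which drives genes that export sterol. Bile acids made from cholesterol feed back on their own synthesis, and a large share of liver transcripts follows the daily clock and the feeding cycle.

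The sequences upstream of the cholesterol synthesis and uptake genes were searched for short motifs. Of the 20 tested genes of cholesterol synthesis and uptake, 16 had an entry in RefSeq's promoter sequences (build GRCm38.p6). All 16 held CCAAT, the core of the element bound by the factor NF-Y, on either strand in the 250 bases before a listed start. This share of 100% compares with 40.0% of the 8999 tested genes with an entry and 37.5% of all 27025 genes with one. The 4 stretches below cover the 100 bases before the start of the 4 synthesis genes with the lowest changes among those with an entry, and the capitals mark CCAAT or its reverse complement.
Cyp51, chr5:4104698-4104797, minus strand: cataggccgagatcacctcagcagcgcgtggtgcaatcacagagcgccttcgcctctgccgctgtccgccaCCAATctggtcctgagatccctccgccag
Idi1, chr13:8885506-8885605, plus strand: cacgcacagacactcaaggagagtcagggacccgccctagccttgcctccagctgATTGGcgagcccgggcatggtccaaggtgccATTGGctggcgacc
Msmo1, chr8:64733579-64733678, minus strand: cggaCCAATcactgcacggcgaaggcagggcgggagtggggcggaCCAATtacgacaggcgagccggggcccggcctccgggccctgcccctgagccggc
Nsdhl, chrX:72918421-72918520, plus strand: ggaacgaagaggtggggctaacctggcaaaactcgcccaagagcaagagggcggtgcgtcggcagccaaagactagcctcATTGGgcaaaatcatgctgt

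A second motif, TCACNCCAC, is a form of the sterol regulatory element that SREBP proteins bind. It was found on either strand in 1 of the 16 sterol genes, Hmgcs1, in 1.30% of the tested genes and in 1.22% of all genes. Aldoc, one of the genes that fell below, was the 1 of 10 passing genes with an entry that held it. Both stretches are shown with the motif in capitals, which starts 137 bases before the start of Hmgcs1 and 80 bases before that of Aldoc.
Hmgcs1, chr13:119690201-119690300, plus strand: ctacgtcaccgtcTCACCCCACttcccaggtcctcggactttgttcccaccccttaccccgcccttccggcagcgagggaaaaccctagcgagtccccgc
Aldoc, chr11:78322973-78323072, plus strand: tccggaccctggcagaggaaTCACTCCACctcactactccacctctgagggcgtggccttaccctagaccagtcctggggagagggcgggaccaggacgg

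CCAAT was also in 66.7% of the 15 clock genes with an entry (10 genes) and in 5 of the 10 passing genes with an entry (50%). The E-box CACGTG, a motif of the clock activators and of other factors, was in 4 of these 15 clock genes (26.7%), in 4 of the 16 sterol genes (25%), in 10.2% of the tested genes and in 6.86% of all genes. TTANGTAA is the D-box read by the clock output factor Dbp and its relatives. It was present in 1 of 15 clock genes with an entry, Per3, in 0 of the 16 sterol genes, in 1.72% of the tested genes and in 2.44% of all genes. The Per3 stretch holds it 2 times, 205 and 158 bases before the start, both marked in capitals. A match describes these letters only and is not evidence of binding.
Per3, chr4:151044786-151044885, minus strand: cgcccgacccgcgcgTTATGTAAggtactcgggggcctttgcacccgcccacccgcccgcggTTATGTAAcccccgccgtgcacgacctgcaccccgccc

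Of 11061 genes tested, 6 rose and 6 fell at week 21 in limma, with strain as a term and all 10 arrays in the fit (Benjamini-Hochberg adjusted p below 0.05). Each direction made up 0.0542% of the genes tested. At an unadjusted p below 0.05 there were 759 higher and 603 lower genes of the 11061. These counts are the background for the list counts at this threshold below. All 12 genes that passed moved the same way in both strains. Over all genes tested, 60.3% had the same sign in both strains, in either direction. In 11 of the 12 both week 21 levels lay beyond both week 0 levels, and in the other, Crym, the weeks overlapped across the strains. The share of all 11061 genes with such a separation was not counted. The test that chose the 12 used these same levels. Their shared direction and separation therefore follow largely from that choice and add no separate support. RefSeq places Dbp, Cyp2b10 and Crym on chromosome 7, Nr1d1, Aldoc, Tlcd2 and Igfbp1 on chromosome 11, Hsd17b6 on 10, Haghl on 17, Rhbg on 3, Zfand4 on 6 and Adgrg2 on X.

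Of the 6 genes that rose, Dbp had the largest change. It encodes a clock output transcription factor and was at 8.94 in C57BL/6J and 10.33 in DBA/2J at week 21, against 5.58 and 5.97 in these strains at week 0 (change 3.86 ± 0.44, SE, n = 2 arrays per week, adjusted p = 0.0388). Nr1d1, the gene of the clock repressor REV-ERB alpha, was at 6.18 and 7.27 at week 21, against 3.02 and 4.34 at week 0 (3.04 ± 0.37, adjusted p = 0.041). Its C57BL/6J level at week 0 lay under 3.74, the median of all probe sets' mean levels, so the size of that rise is uncertain. Hsd17b6, a steroid dehydrogenase gene, was abundant throughout and rose evenly, with 11.60 in C57BL/6J and 12.18 in DBA/2J at week 21 and 10.20 and 10.77 at week 0 (1.40 ± 0.15, adjusted p = 0.0388). Adgrg2, an adhesion receptor gene, rose by 2.48 ± 0.32, and Crym, a thyroid hormone binding protein gene, by 1.55 ± 0.20. Both differed between strains: Crym was at 4.77 in C57BL/6J and 8.19 in DBA/2J at week 21, against 3.40 and 6.45 at week 0. Haghl had 1.79 ± 0.22, but its 4 probe sets ranged from −0.14 to 1.79, and with the median over probe sets its change was 0.65 (adjusted p = 0.422).

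Among the genes that fell, Cyp2b10 encodes a drug-metabolising cytochrome P450 induced through the receptor CAR. It was at 8.76 in C57BL/6J and 7.07 in DBA/2J at week 21, against 10.94 and 10.10 at week 0 (−2.60 ± 0.25, adjusted p = 0.0332). Igfbp1, a secreted binding protein that insulin represses, was at 10.32 and 9.48 at week 21, against 11.96 and 11.70 at week 0 (−1.93 ± 0.17, adjusted p = 0.0332). Aldoc, a fructose-bisphosphate aldolase gene, was at 4.87 and 5.17 at week 21, against 7.27 and 7.43 at week 0 (−2.33 ± 0.28, adjusted p = 0.041). Its DBA/2J level at week 12 was 7.10, near that of week 0. Rhbg, an ammonium transporter of pericentral hepatocytes, fell by 2.05 ± 0.23 SE in both strains alike (−2.11 in C57BL/6J and −1.99 in DBA/2J). Tlcd2 (−1.95 ± 0.20) and Zfand4 (−1.30 ± 0.15) completed the set.

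**Figure D1:**
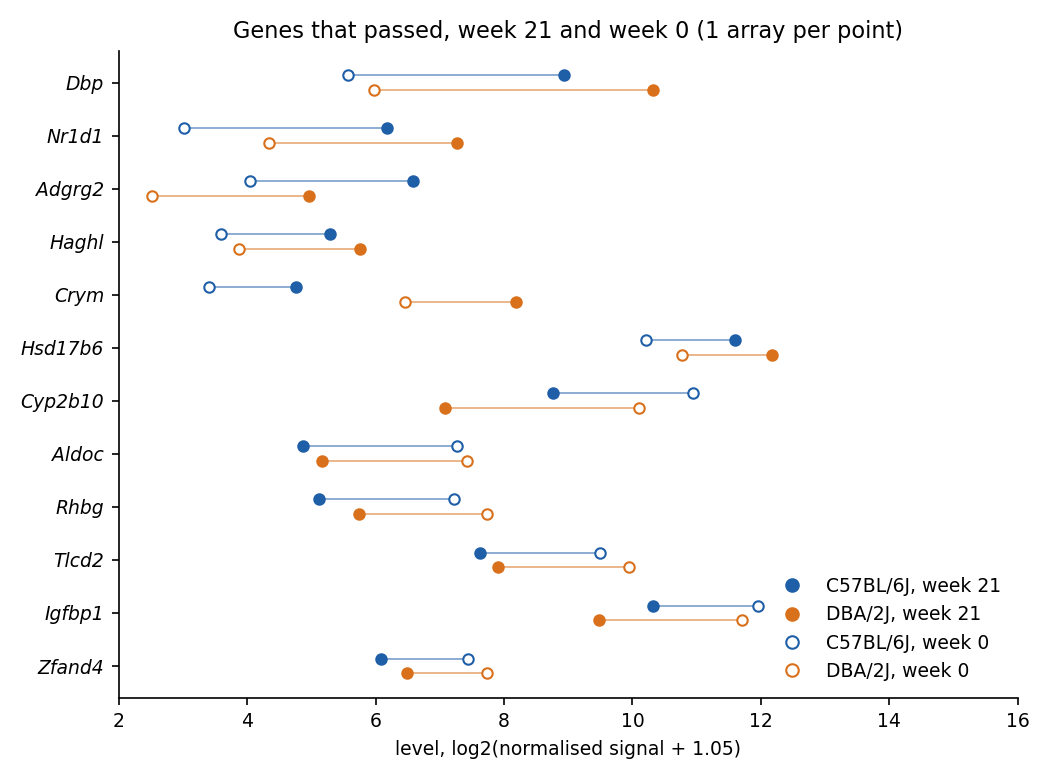
Levels of the 12 genes that passed, on the log2(normalised signal + 1.05) scale, with filled points for week 21, open points for week 0, blue for C57BL/6J and orange for DBA/2J, 1 array per point. Every filled point lies on the same side of its open partner in both strains, and Crym keeps a gap between the strains at both weeks.

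These calls rest on few arrays. Without either week 0 array, or without the DBA/2J week 21 array, 0 of the 12 passed, and without the C57BL/6J week 21 array only Igfbp1 did. With only the 4 arrays of weeks 0 and 21 in the fit, which leaves 1 residual degree of freedom, 36 genes passed as higher and 41 as lower, and 10 of the 12 were among them.

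A second count used the 2 strains as separate readings. At week 21, 98 genes (0.886%) were at least 2-fold higher in both strains and 96 (0.868%) at least 2-fold lower in both. Within C57BL/6J 557 genes (5.04%) were at least 2-fold higher and 310 (2.8%) lower, and within DBA/2J 403 (3.64%) were higher and 352 (3.18%) lower. A further 11 genes were at least 2-fold higher in C57BL/6J and at least 2-fold lower in DBA/2J, and 17 the reverse. The changes in the 2 strains had a Pearson correlation of 0.35 over the 11061 genes, and 60.3% of genes had the same sign, which describes genes and not replicates. With 1 array per strain and week these counts carry no test.

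**Figure D2:**
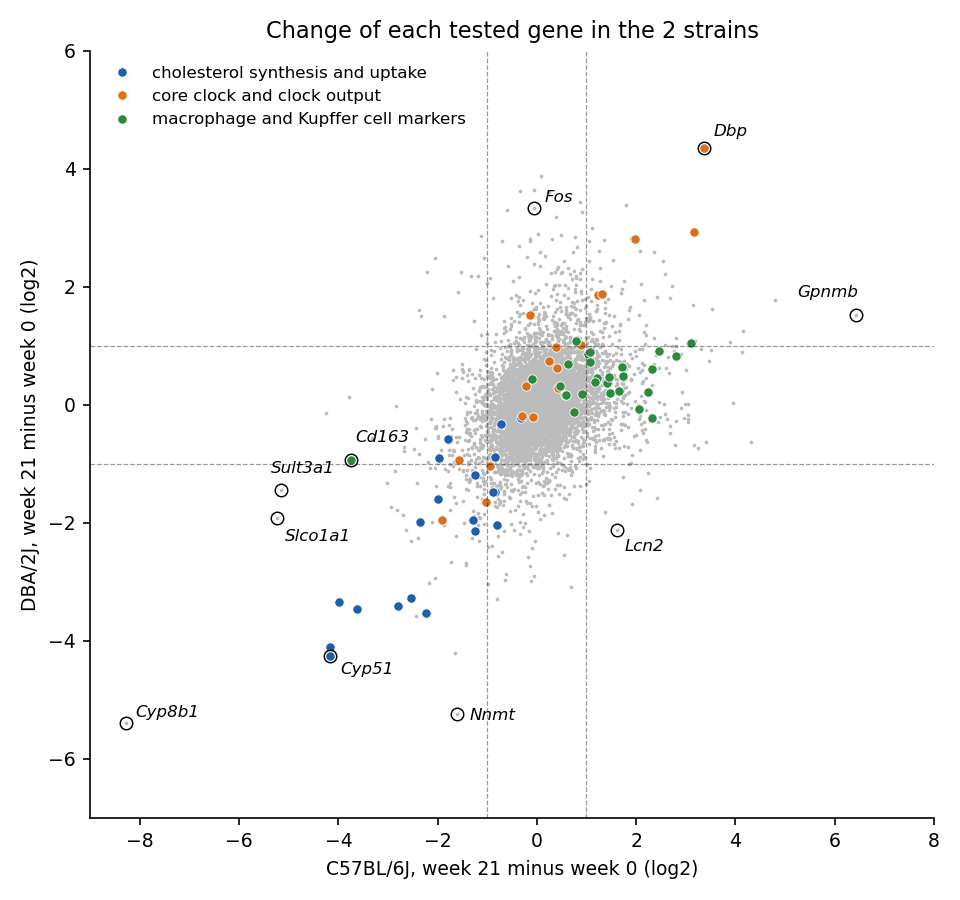
Change from week 0 to week 21 of each of the 11061 tested genes, C57BL/6J on the horizontal axis and DBA/2J on the vertical axis, both in log2 units, with dashed lines at 2-fold. Cholesterol synthesis genes (blue) lie in the lower left, clock genes (orange) lie near the diagonal, and macrophage markers (green) spread along the C57BL/6J axis.

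Cholesterol synthesis genes were lower at week 21 as a group. All 20 tested genes of cholesterol synthesis and uptake had lower levels at week 21 in both strains, 12 of them at least 2-fold lower in both (0.868% of all genes were). Over all genes tested, 60.3% had the same sign in both strains, in either direction. The median change was −1.65, against 0.02 for all genes. None of the 20 passed the adjusted threshold, and 18 were lower at an unadjusted p below 0.05 (603 of all 11061 genes were). Other genes of the pathway, not on this list of 20, were not analysed here.

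The early steps make isoprenoid units. Hmgcs1, the HMG-CoA synthase, was at 9.34 in C57BL/6J and 8.45 in DBA/2J at week 21, against 10.62 and 10.40 at week 0 (−1.62 ± 0.64, adjusted p = 0.361). Idi1, the isopentenyl diphosphate isomerase, had 4.84 and 5.88 at week 21, against 8.82 and 9.23 at week 0 (−3.67 ± 0.91, adjusted p = 0.18), and Fdps, the farnesyl diphosphate synthase, had −3.54 ± 0.76 (adjusted p = 0.14). The kinases Mvk and Pmvk and the decarboxylase Mvd differed by −1.42, −1.69 and −1.80. All 6 of these genes were lower in both strains, and none of them passed.

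The later steps build the sterol rings. Sqle, the squalene epoxidase that sets a main control point of the pathway, was at 3.80 in C57BL/6J and 3.99 in DBA/2J at week 21, against 7.98 and 8.09 at week 0 (−4.14 ± 1.04, adjusted p = 0.181). Cyp51, the lanosterol demethylase, was at 4.36 and 4.48 at week 21, against 8.53 and 8.74 at week 0 (−4.21 ± 0.83, adjusted p = 0.121). The week 21 levels of Sqle lay close to the 3.74 of the median probe set, so its decrease may be understated. Tm7sf2, a sterol reductase, came nearest to the threshold, with 7.78 and 8.15 at week 21 and 10.13 and 10.14 at week 0 (−2.17 ± 0.34, adjusted p = 0.0656). Msmo1, Nsdhl and Dhcr7, which act on ring intermediates, had changes of −3.11 ± 0.72, −2.91 ± 0.64 and −2.88 ± 0.60. At the other end Fdft1, the squalene synthase, differed by −0.27 ± 0.26 and Ebp, a sterol isomerase, by −0.52 ± 0.15.

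Regulators of the pathway also lay lower. Srebf2, the gene of SREBP-2, was at 5.85 in C57BL/6J and 5.52 in DBA/2J at week 21, against 6.73 and 7.0 at week 0 (−1.18 ± 0.29, adjusted p = 0.181). Insig1, which holds SREBP proteins in the endoplasmic reticulum, differed by −1.97 in C57BL/6J and −0.90 in DBA/2J, and Stard4, a sterol carrier, by −1.79 and −0.58.

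The 2 strains differed from each other in the weeks between, most at week 12, and this entered the standard errors. In DBA/2J the median of the 20 genes relative to week 0 was −1.80, −1.68, 0.92 and −1.96 at weeks 1, 4, 12 and 21, and in C57BL/6J it was −0.86, −1.33, −0.98 and −1.88. Without both week 12 arrays, an alternative chosen after seeing the data, the changes of Sqle (adjusted p = 0.00869), Msmo1 (0.0285) and Cyp51 (0.0343) passed. With only the 4 arrays of weeks 0 and 21, 10 of the 20 passed, all of them lower, Cyp51, Sqle and Fdps with the smallest adjusted p (0.00217 each).

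**Figure D3:**
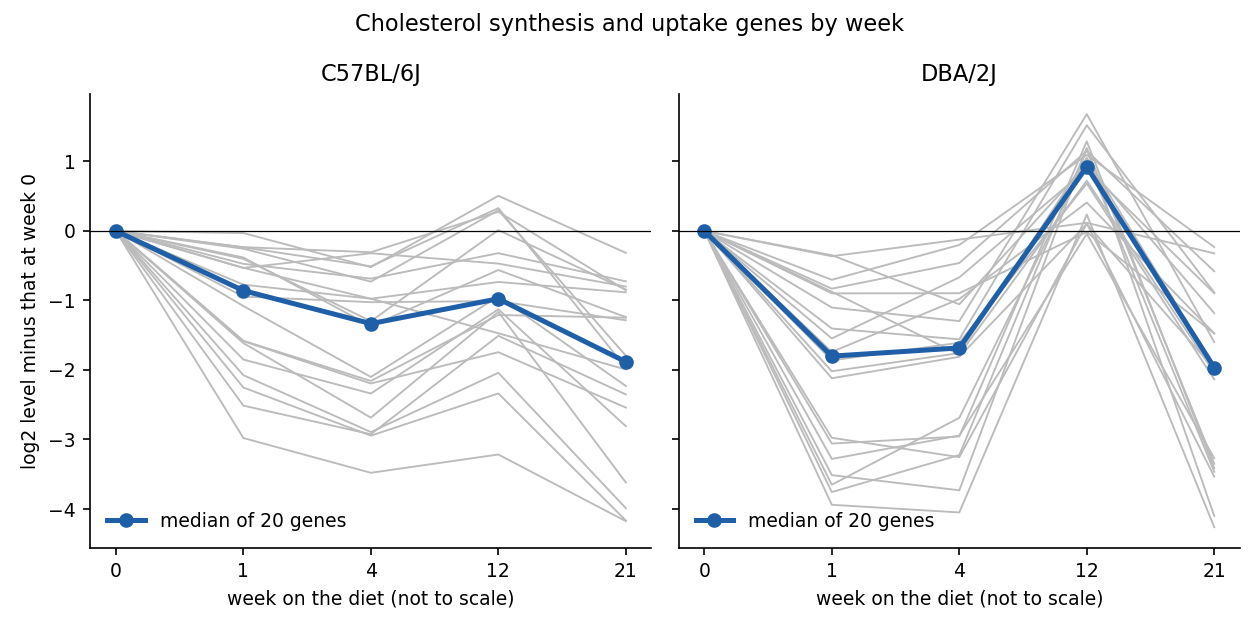
Level of each of the 20 cholesterol synthesis and uptake genes minus its own week 0 level (grey lines, log2), by week on the diet (not to scale), in C57BL/6J and DBA/2J, with the median in blue. At week 21 all 20 genes lie below 0 in both strains, with medians of −1.88 and −1.96, while the DBA/2J array of week 12 lies at 0.92.

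Sterol export genes lay higher. Of 14 LXR targets and sterol efflux genes 0 passed, and the median change was 0.73. An unadjusted p below 0.05 was reached by 7, all higher (759 of all 11061 genes were higher). Abcg5 and Abcg8, the partners in the transporter that moves sterol into bile, had changes of 1.26 ± 0.27 (adjusted p = 0.14) and 0.90 ± 0.31. Abcg5 was at 10.28 in C57BL/6J and 10.03 in DBA/2J at week 21, against 9.02 and 8.77 at week 0. Abca1, which loads cholesterol onto apolipoprotein A-I, had 10.79 and 10.97 at week 21, against 9.94 and 10.13 at week 0 (0.85 ± 0.16, adjusted p = 0.116). The 2 strains gave nearly the same change for Abca1 and Abcg5. Lpl, the lipoprotein lipase gene, was higher by 2.12 in C57BL/6J and by 0.38 in DBA/2J.

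Fatty acid synthesis genes split. Of 24 tested, 0 passed, and 5 were higher and 5 lower at an unadjusted p below 0.05 (759 and 603 of all 11061 genes). The median change was −0.05. Srebf1, the SREBP-1 gene and an LXR target, was at 9.24 in C57BL/6J and 10.92 in DBA/2J at week 21, against 8.02 and 9.23 at week 0 (1.45 ± 0.62, adjusted p = 0.393). Higher at least 2-fold in both strains were Srebf1, Scd2, a desaturase, and Elovl6, an elongase of saturated fatty acids (1.64 ± 0.39 and 1.43 ± 0.49 for the last 2). The probe sets of Scd2 ranged from 0.56 to 2.91. Lower at least 2-fold in both strains were Acacb, the mitochondrial acetyl-CoA carboxylase (−1.54 ± 0.35), and Elovl3, an elongase with male-biased and clock-dependent expression, at 4.84 and 5.76 at week 21, against 6.90 and 8.69 at week 0 (−2.50 ± 0.46, adjusted p = 0.1). Fasn, the fatty acid synthase, differed by 0.30 in C57BL/6J and 0.41 in DBA/2J.

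In bile acid synthesis 1 gene lay far lower than the others at week 21. Cyp8b1, the sterol 12-alpha-hydroxylase that directs synthesis to cholic acid, was at 2.63 in C57BL/6J and 5.78 in DBA/2J at week 21, against 10.92 and 11.17 at week 0. Its change of −6.84 ± 1.06 was larger in size than that of any other gene named here, but missed the threshold (adjusted p = 0.0656), and the C57BL/6J level at week 21 lay under the 3.74 of the median probe set. With 1 array left out the change ranged from −8.53 to −5.15 and passed in 2 of 10 fits. At weeks 1, 4 and 12 it was at 3.36, 3.63 and 8.36 in C57BL/6J and at 8.22, 8.72 and 9.81 in DBA/2J. Cyp39a1, an oxysterol hydroxylase, was lower by 1.17 in C57BL/6J and by 2.30 in DBA/2J. Cyp7a1, the cholesterol 7-alpha-hydroxylase that limits the rate of the main route, differed by −1.52 in C57BL/6J and 0.61 in DBA/2J, and Nr0b2, the gene of the bile acid-induced repressor SHP, by 1.26 and 0.27. Over the 16 tested synthesis genes 0 passed, and the median change was −0.09. By unadjusted p below 0.05, 4 were lower and 1 higher (603 and 759 of all 11061 genes).

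Among 18 genes of bile acid sensing and transport 0 passed and the median change was 0.08. Slco1a1, an uptake carrier for organic anions with male-biased expression, was at 3.47 in C57BL/6J and 7.21 in DBA/2J at week 21, against 8.70 and 9.12 at week 0 (−3.57 ± 1.5, adjusted p = 0.39). Abcc4, an export pump of the basolateral membrane, was higher by 1.53 in C57BL/6J and by 0.84 in DBA/2J.

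Clock genes held 2 of the 6 genes that rose. Of 18 tested genes of the core clock and its output, Dbp and Nr1d1 passed (0.0542% of all genes passed as higher). By unadjusted p below 0.05, 7 were higher and 4 lower (759 and 603 of all 11061 genes). The median change was 0.51. Higher at least 2-fold in both strains were also Per3, a period gene (2.39 ± 0.35, adjusted p = 0.0596), Wee1, a clock-driven kinase gene (1.60 ± 0.23, adjusted p = 0.0596), and Nr1d2, the gene of REV-ERB beta (1.55 ± 0.26, adjusted p = 0.0763). Per3 was at 6.35 in C57BL/6J and 7.27 in DBA/2J at week 21, against 4.37 and 4.46 at week 0, and its 5 probe sets ranged from 0.95 to 2.43.

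Genes of the opposite phase of the clock lay lower. Arntl, the gene of the activator BMAL1, was at 5.28 in C57BL/6J and 4.99 in DBA/2J at week 21, against 7.20 and 6.94 at week 0 (−1.93 ± 0.32, adjusted p = 0.075). Clock, the partner of BMAL1, had −0.99 ± 0.25, Cry1, a repressor, −1.34 ± 0.51, and Nfil3, which competes with Dbp at the D-box, −1.25 ± 0.43. Set against the mean of weeks 1, 4 and 12, week 21 differed by −0.08 for Dbp, −0.01 for Per3 and 0.32 for Nr1d1, and the median of the 18 clock genes differed by −0.01. For the genes of the opposite phase it differed by 0.71 for Arntl, 1.0 for Cry1, 0.22 for Clock and −0.02 for Nfil3, so the mean levels of Arntl and Cry1 lay between those of week 0 and those of the weeks before. None of these differences from weeks 1, 4 and 12 passed. The hour of collection is not in the labels, and its part in these differences was not tested.

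Fasting and insulin-repressed genes lay lower, led by Igfbp1, which passed. Of 18 tested genes of gluconeogenesis and fasting 1 fell (0.0542% of all genes), and the median change was −0.29. By unadjusted p below 0.05, 7 were lower and 0 higher (603 and 759 of all 11061 genes). Irs2, the insulin receptor substrate of the fasting liver, was at 6.09 in C57BL/6J and 6.34 in DBA/2J at week 21, against 7.08 and 7.40 at week 0 (−1.02 ± 0.23, adjusted p = 0.146). Tat, the tyrosine aminotransferase, and G6pc, the glucose-6-phosphatase, had −0.93 ± 0.26 and −0.81 ± 0.27, and Ppargc1a, a coactivator of gluconeogenesis, −0.95 ± 0.30. Of 29 genes of fatty acid oxidation and PPAR-alpha, 0 passed and the median change was −0.07. Pdk4, a kinase that blocks pyruvate oxidation in fasting, was at 6.88 in C57BL/6J and 6.41 in DBA/2J at week 21, against 9.42 and 8.72 at week 0 (−2.42 ± 0.49, adjusted p = 0.124). Cyp4a31, a fatty acid hydroxylase, lay lower by 1.31 in C57BL/6J and 2.26 in DBA/2J, and Fgf21, a fasting hormone, differed by −1.01 and 0.21. The feeding state at collection is not given, and its part was not tested.

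**Figure D4:**
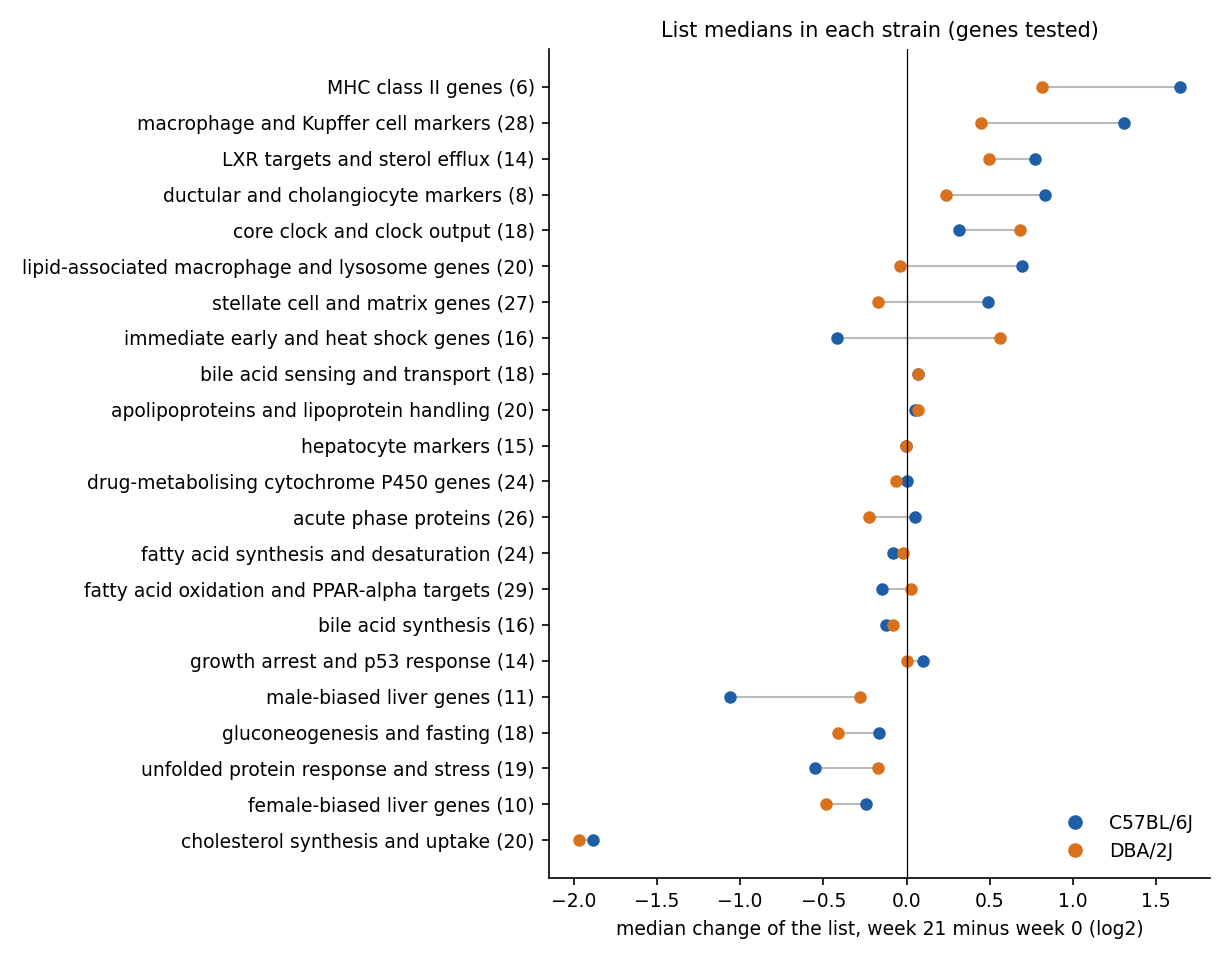
Median change from week 0 to week 21 of 22 gene lists in log2 units, in C57BL/6J (blue) and DBA/2J (orange), with the number of tested genes in brackets. Cholesterol synthesis lies at −1.88 and −1.96 and hepatocyte markers at 0.00 and −0.01, while macrophage markers lie at 1.31 in C57BL/6J and 0.45 in DBA/2J.

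Macrophage genes lay higher at week 21, more so in C57BL/6J. Of 28 tested macrophage and Kupffer cell markers 0 passed. An unadjusted p below 0.05 was reached by 7 higher and 1 lower (759 and 603 of all 11061 genes). By any amount 23 were higher in both strains, where 60.3% of all genes had the same sign in both, in either direction. The median change was 1.31 in C57BL/6J and 0.45 in DBA/2J, and 19 were at least 2-fold higher in C57BL/6J against 2 in DBA/2J, where 5.04% and 3.64% of all genes were. The difference between the strains could not be tested with 1 array each. The summed signal of the 28 genes was 20114 in C57BL/6J and 10446 in DBA/2J at week 21, against 6887 and 7761 at week 0. With 1 array left out, the median of this list less that of all genes ranged from 0.39 to 1.38. More cells of a type and more RNA per cell cannot be told apart in whole liver.

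Lyz2, a lysozyme gene of myeloid cells, was at 10.81 in C57BL/6J and 9.20 in DBA/2J at week 21, against 7.70 and 8.15 at week 0 (2.08 ± 0.69, adjusted p = 0.291). Cd68, an endosomal protein of macrophages, had 8.30 and 6.13 at week 21, against 5.83 and 5.22 at week 0 (1.69 ± 0.69). Among markers of resident Kupffer cells, Clec4f differed by 0.58 in C57BL/6J and 0.17 in DBA/2J and Adgre1 by 0.58 and 0.17. These lay below the list medians of 1.31 and 0.45. Vsig4 differed by 1.41 and 0.37, above the list median in C57BL/6J and below it in DBA/2J. Cd163, a scavenger receptor for haemoglobin on resident macrophages, went the other way, with 3.77 in C57BL/6J and 7.14 in DBA/2J at week 21, against 7.52 and 8.07 at week 0 (−2.34 ± 0.58, adjusted p = 0.18).

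Genes of lipid-laden macrophages differed in direction between members and between strains. Of 20 tested lipid-associated macrophage and lysosome genes 0 passed, and 4 were at least 2-fold higher in both strains (0.886% of all genes were). By any amount 10 were higher in both strains, 3 lower in both and 7 of opposite sign (60.3% of all genes shared a sign). The median change was 0.69 in C57BL/6J and −0.04 in DBA/2J. Gpnmb was at 9.56 in C57BL/6J and 3.80 in DBA/2J at week 21, against 3.11 and 2.28 at week 0 (3.98 ± 1.14, adjusted p = 0.23). DBA/2J mice carry a loss-of-function allele of Gpnmb, and its levels in that strain at weeks 0, 1, 4 and 12 were 2.28, 3.30, 3.07 and 2.44. Lgals3, the galectin-3 gene, was at 9.64 and 6.63 at week 21, against 5.49 and 5.39 at week 0, and Mmp12, the macrophage elastase, at 7.41 and 5.18, against 2.61 and 3.40. Cd9, a tetraspanin gene, differed almost equally in the strains, by 1.35 and 1.30 (1.32 ± 0.20, adjusted p = 0.0656). Those 4 genes were the ones at least 2-fold higher in both strains. The week 0 levels of Gpnmb and Mmp12 lay under 3.74 in both strains, and Gpnmb reached only 3.80 in DBA/2J at week 21. The size of their rises, and so their place in this count, is uncertain. Trem2, a receptor that defines lipid-associated macrophages, was too dim for the filter and was not tested. It was at 2.91 in C57BL/6J and 1.92 in DBA/2J at week 21, against 4.63 and 5.22 at week 0, lower in both strains. Atp6v0d2, a proton pump subunit, was lower by 0.33 in C57BL/6J and by 1.63 in DBA/2J. With 1 array left out, the median of the 20 less that of all genes ranged from −0.00759 to 0.61.

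**Figure D5:**
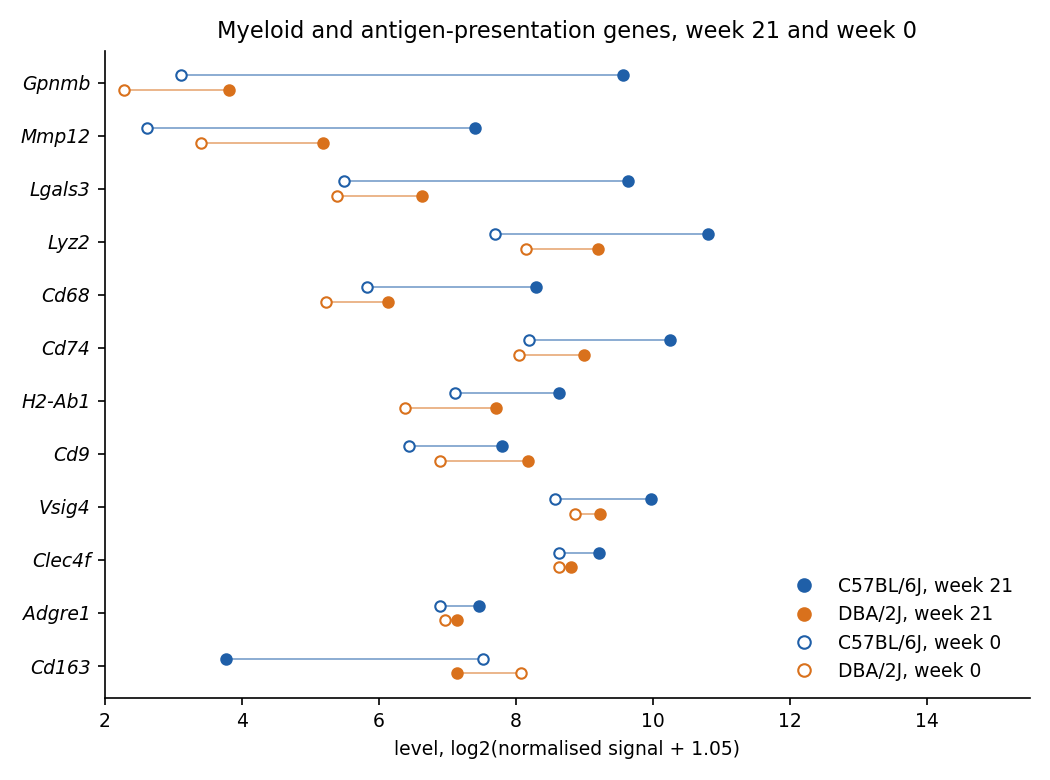
Levels of 12 myeloid and antigen-presentation genes on the log2(normalised signal + 1.05) scale, filled points for week 21, open points for week 0, blue for C57BL/6J and orange for DBA/2J, 1 array per point. Gpnmb, Mmp12, Lgals3 and Lyz2 have their widest gaps in C57BL/6J, and Cd163 lies lower at week 21.

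MHC class II genes also lay higher. Of 6 tested 0 passed, and 5 were higher in both strains (60.3% of all genes shared a sign). The median change was 1.64 in C57BL/6J and 0.81 in DBA/2J. H2-Ab1, a class II chain, was at 8.63 in C57BL/6J and 7.71 in DBA/2J at week 21, against 7.11 and 6.37 at week 0 (1.43 ± 0.82, adjusted p = 0.527), and Cd74, the invariant chain, had 1.5 ± 0.76. Markers of other cells were mostly dim. Of 8 tested lymphocyte and natural killer cell markers 0 passed (median change 0.39), and their summed signal was 596.6 in C57BL/6J and 215 in DBA/2J at week 21, against 192.9 and 157.9 at week 0.

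Matrix genes often differed in sign between the strains, and ductular genes mostly lay higher in both. Of 27 stellate cell and matrix genes 0 passed. By sign, 16 were opposite in the 2 strains, 10 higher in both and 1 lower in both, while 60.3% of all genes had the same sign. The median change was 0.49 in C57BL/6J and −0.17 in DBA/2J. Col1a1, a collagen I chain, was at 6.56 in C57BL/6J and 3.68 in DBA/2J at week 21, against 4.69 and 2.03 at week 0 (1.76 ± 0.94, adjusted p = 0.493), but its 2 probe sets gave −0.09 and 1.76. Of 8 ductular and cholangiocyte markers 0 passed, with a median change of 0.66. An unadjusted p below 0.05 was reached by 4, all higher (759 of all 11061 genes were higher). In both strains 7 of the 8 were higher by any amount (60.3% of all genes shared a sign), and the other had opposite signs. Krt23, a keratin induced in stressed hepatocytes, was at 6.52 and 7.54 at week 21, against 4.16 and 4.94 at week 0 (2.48 ± 0.50, adjusted p = 0.121).

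Detoxification genes and genes with sex-biased expression lay lower in several cases. Of 24 drug-metabolising cytochrome P450 genes, Cyp2b10 fell, and the median change was −0.04. By unadjusted p below 0.05, 6 were lower and 0 higher (603 and 759 of all 11061 genes). Cyp1a2 and Cyp2c54 differed by −1.28 ± 0.31 and −1.56 ± 0.39. Of 10 female-biased liver genes 4 were at least 2-fold lower in both strains (0.868% of all genes were), with a median change of −0.36. Of 11 male-biased genes 3 were at least 2-fold lower in both strains and 6 in C57BL/6J (0.868% and 2.8% of all genes were). Their medians were −1.06 in C57BL/6J and −0.28 in DBA/2J. The median of their mean changes was −0.17, and with 1 array left out it ranged, less the median of all genes, from −0.73 to 0.0879. Cyp17a1, a steroid hydroxylase, was at 7.67 in C57BL/6J and 5.86 in DBA/2J at week 21, against 10.11 and 9.45 at week 0 (−3.01 ± 0.84, adjusted p = 0.22). Cyp3a44 had −2.34 ± 0.54 and Cyp3a16 −2.93 ± 1.04. Sult3a1, a sulfotransferase, was at 4.5 in C57BL/6J and 10.78 in DBA/2J at week 21, against 9.67 and 12.23 at week 0 (−3.31 ± 1.51). Of the female-biased genes Fmo2, a flavin monooxygenase, went the other way (1.03 ± 0.25), so both directions occurred within that list.

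Protein folding genes lay lower. Of 19 genes of the unfolded protein response and stress 0 passed, and the median change was −0.36. By unadjusted p below 0.05, 8 were lower and 1 higher (603 and 759 of all 11061 genes). Hspa5, the main chaperone of the endoplasmic reticulum, was at 10.61 in C57BL/6J and 10.50 in DBA/2J at week 21, against 11.55 and 11.08 at week 0 (−0.76 ± 0.15, adjusted p = 0.121), and Creld2 had −1.36 ± 0.37. Among 16 immediate early and heat shock genes 0 passed, and the median change was −0.42 in C57BL/6J and 0.56 in DBA/2J. Hspa1b, a heat shock protein gene, lay lower by 2.86 and 1.12. Fos, an immediate early gene, differed by −0.05 in C57BL/6J and 3.33 in DBA/2J.

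Growth control genes and secreted proteins gave mixed readings. Of 14 genes of growth arrest and the p53 response 0 passed. An unadjusted p below 0.05 was reached by 4 higher and 4 lower (759 and 603 of all 11061 genes). The median of the mean changes was −0.16, while the medians within C57BL/6J and DBA/2J were 0.10 and 0.00. Cdkn1a, the cell cycle inhibitor p21, was at 8.78 in C57BL/6J and 5.97 in DBA/2J at week 21, against 9.59 and 9.26 at week 0 (−2.05 ± 0.53, adjusted p = 0.185). Gadd45a, a stress gene, had 3.88 and 6.62 at week 21, against 1.80 and 4.01 at week 0, and Mlkl, the effector of necroptosis, 5.47 and 6.07, against 2.33 and 4.38 (2.41 ± 0.52, adjusted p = 0.142). Both C57BL/6J levels at week 0 lay under 3.74. Ccnd1, the cyclin D1 gene, differed by 1.20 ± 0.28. Nnmt, the nicotinamide methyltransferase, was at 9.41 in C57BL/6J and 4.60 in DBA/2J at week 21, against 11.02 and 9.84 at week 0 (−3.43 ± 1.08).

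Of 20 apolipoprotein and lipoprotein genes 0 passed and the median change was 0.05. Apoc2, the activator of lipoprotein lipase, was at 11.76 in C57BL/6J and 11.43 in DBA/2J at week 21, against 10.68 and 10.79 at week 0 (0.86 ± 0.12, adjusted p = 0.0596). Lipg, the endothelial lipase gene, had −1.47 ± 0.23 (adjusted p = 0.0656) and Apom, an apolipoprotein of high-density lipoprotein, −0.93 ± 0.19. Of 26 acute phase genes 0 passed and the median change was 0.05 in C57BL/6J and −0.23 in DBA/2J. Saa1, a serum amyloid gene, was at 10.90 in C57BL/6J and 10.47 in DBA/2J at week 21, against 9.0 and 11.46 at week 0.

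Outside the lists, several genes were at least 2-fold higher in both strains without passing. Blnk, a signalling adaptor of B cells, was at 5.96 in C57BL/6J and 6.27 in DBA/2J at week 21, against 3.53 and 4.44 at week 0 (2.13 ± 0.33, adjusted p = 0.0656). Ifi27l2b, an interferon-related gene, had 1.96 ± 0.30 (adjusted p = 0.0656). Nox4, an NADPH oxidase gene, had 1.99 ± 0.38 (adjusted p = 0.115), and Adam11 2.37 ± 0.52 (adjusted p = 0.142). Lifr, the receptor of leukaemia inhibitory factor, lay lower by 1.76 in C57BL/6J and 1.39 in DBA/2J (−1.57 ± 0.27, adjusted p = 0.0763), but its 3 probe sets ranged from −1.57 to −0.02.

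The last comparison set week 21 against the mean of weeks 1, 4 and 12 on the diet, to ask which levels after the longest exposure differed from those of the earlier fed weeks. In limma 0 of 11061 genes passed (0%), the smallest adjusted p was 0.961, and 424 genes had an unadjusted p below 0.05. Among the genes above, Cyp8b1 was lower at week 21 than at the earlier weeks by 2.81, Cyp51 by 1.67 and Igfbp1 by 1.00, and Gpnmb was higher by 1.83. The median of the cholesterol list was −0.91 in this comparison and that of the macrophage list 0.22. Relative to week 0, the macrophage median in C57BL/6J was 1.09, 2.58, 0.05 and 1.31 at weeks 1, 4, 12 and 21, so week 4 lay above week 21. In DBA/2J it was 0.42, −0.02, −0.05 and 0.45. The DBA/2J array of week 12 weighed on the sterol values: Cyp51 in DBA/2J was at 4.80, 4.69, 8.98 and 4.48 at weeks 1, 4, 12 and 21. Without that array the difference was −1.12 for Cyp51 and −0.57 for the cholesterol list. With 1 array left out Gpnmb ranged from 0.49 without the C57BL/6J week 21 array to 3.16 without the DBA/2J one, and the macrophage median from −0.0908 without the DBA/2J week 4 array to 0.59 without the C57BL/6J one. The 2 comparisons share the week 21 arrays.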

How the data were processed

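Liver RNA was measured on 10 Affymetrix Mouse Genome 430 2.0 arrays, 1 for each strain and week. The deposited values are signal intensity on a linear scale, computed by the authors with GCOS, per the submitters' processing notes, which give no version. The scaling of the arrays is not given in the sources used here, and the 2% trimmed mean signal was 79.3 and 83.8 at week 21 and 56.2 and 56.9 at week 0 (C57BL/6J and DBA/2J). Arrays were therefore quantile normalised with limma 3.58.1 in R 4.3.3 (data.table version 1.17.8) over 45037 probe sets, without 64 controls, and analysed as log2(signal + 1.05), the 10th percentile of the deposited values. Of the probe sets, 34945 had 1 gene symbol, 932 several and 9160 none. Each gene took its brightest probe set, and genes above the 50th percentile (3.74) were kept, 11061 of 18193. The number of arrays limits the precision.

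The fit had week and strain as terms over all 10 arrays (lmFit, eBayes with trend, 4 residual degrees of freedom), with Benjamini-Hochberg adjustment at 0.05. The labels give the strain of each array, and strain was kept as a block. Its interaction with week could not be fitted. The fits were tested on simulated data. Named genes came from a rule: the largest changes held by both strains, up to 6 leading members per list and a fixed set, of which some are printed. The members and lists were chosen with earlier results of these data known. Motifs were searched in RefSeq promoter sequences, and plots were made with matplotlib 3.10.9 under Python 3.11.15.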

Additional observations from a re-analysis of the deposited data

Results flagged for a closer look

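A total of 3 named genes stood out because the 2 strains moved at least 2-fold in opposite directions between week 21 and week 0. Over all 11061 genes, 11 were higher in C57BL/6J and lower in DBA/2J by this measure, and 17 the reverse. The named genes were chosen in part for large changes. The difference between strains was not tested, since each strain has 1 array per week. Lcn2, a neutrophil and acute phase protein gene, differed by 1.61 in C57BL/6J and by −2.12 in DBA/2J. It was at 10.17 in C57BL/6J and 7.65 in DBA/2J at week 21, against 8.55 and 9.77 at week 0. Saa2, a serum amyloid gene, differed by 1.93 in C57BL/6J and −1.68 in DBA/2J. Its week 0 levels already lay apart, at 7.23 in C57BL/6J and 9.88 in DBA/2J, and its week 21 levels were 9.16 and 8.2. Jun, an immediate early transcription factor gene, differed by −1.19 in C57BL/6J and 2.18 in DBA/2J.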

How the results depend on the processing

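With 1 array left out, the numbers of genes that rose and fell ranged from 0 to 24 and from 0 to 16. The strain block mattered: without it 0 genes passed in either direction, and the same held for eBayes without trend (0 and 0). Rises numbered 11 with arrays centred on their median, 2 with a floor at 16, 3 with the median over probe sets, 3 with no filter, 1 with a pseudocount of 16 and 1 without both week 12 arrays, against 6 as reported. With only the 4 arrays of weeks 0 and 21 there were 36 rises and 41 falls. On the authors' own scale, where the median of all genes lay 0.57 higher at week 21, there were 1548 rises and 28 falls, and Fdft1 had 0.25 in place of −0.27. The comparison of week 21 with the earlier weeks gave 0 genes in every setting run.

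Genes at least 2-fold higher in both strains numbered 51 with a filter at the 70th percentile, 64 with the floor, 364 with no filter, 42 with the pseudocount of 16 and 702 on the authors' scale. Those lower in both numbered 58 with the filter, 412 with no filter, 54 with the pseudocount and 30 on the authors' scale. Within C57BL/6J 223, 1806, 250 and 1879 were higher and 137, 1660, 128 and 100 lower with the 70th percentile filter, no filter, the pseudocount and the authors' scale. Within DBA/2J 143, 1637, 166 and 1813 were higher and 157, 1791, 164 and 112 lower under these settings, and 246 were higher with the floor.

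List medians, taken relative to all genes, kept 1 sign in every setting run for 13 of 22 lists. The apolipoprotein list had −0.29 with median centring and −0.28 on the authors' scale, and the bile acid transport list −0.0372 and −0.0303. With 1 array left out 9 lists crossed 0. These were apolipoproteins (−0.0212 to 0.0690), bile acid transport (−0.0336 to 0.0934), fatty acid synthesis (−0.16 to 0.0119), fatty acid oxidation (−0.37 to 0.16), growth arrest (−0.18 to 0.12), immediate early genes (−0.20 to 0.59), lipid-associated macrophage genes (−0.00759 to 0.61), male-biased genes (−0.73 to 0.0879) and matrix genes (−0.0898 to 0.47). The cholesterol list stayed between −2.0 and −1.67. The causes of these shifts were not tested. Signals near background limit the size of changes in dim genes such as Cyp8b1, Sqle and Gpnmb.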
